A study of Mus musculus with 2 samples.

Results

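Chemokine receptors are the subject here: 9 genes, Ccr1, Ccr2, Ccr3, Ccr6, Ccr7, Ccr9, Cxcr2, Cxcr4 and Cx3cr1, of the 12393 genes that the arrays could name. Every probe set whose platform annotation gave 1 of these genes and no other was taken, which made 15 probe sets. A probe set is a group of short probes read together as 1 signal. The arrays compare cell populations sorted from the lamina propria of the small intestine, the connective tissue beneath the gut epithelium, of C57BL/6 mice aged 8 weeks. Eosinophils were sorted as CD11b+, CD11c intermediate, MHCII- and SiglecF+ cells and gave 1 array. Dendritic cells were sorted as CD11c+ and MHCII+ cells and gave the other array, and both populations were unstimulated. The sources used here do not say how many mice went into either sort.

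Chemokine receptors are G protein-coupled receptors that cells carry on their surface to read gradients of small secreted proteins, the chemokines, and so to leave or enter tissues. CC receptors such as Ccr3 bind CC chemokines, CXC receptors such as Cxcr4 bind CXC chemokines, and Cx3cr1 binds the membrane-anchored chemokine Cx3cl1. Ccr3 is the eotaxin receptor and a defining receptor of eosinophils, Ccr7 carries mature dendritic cells into lymph vessels and lymph nodes, and Ccr9 is known for homing of lymphocytes to the small intestine.

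Signals are the deposited linear intensities in arbitrary units. The median of all signals on both arrays, 134.7 units, served as a floor. A signal under the floor was raised to it before a ratio was taken, so such a ratio is a lower bound, written "at least". A gene was called measured when it reached the floor on at least 1 array. By that rule 7994 of 12393 genes were measured, and the other 4399 were under the floor on both arrays. The 95th percentile of 33 probe sets of germ cell, lens, hair, retinal and olfactory genes, taken as background, was 191 units. Signals between 134.7 and 191 units may thus be background. Neither population has a replicate array, so no error or test can be given, and each difference describes these 2 arrays. The spread that could be measured was that between probe sets of 1 gene, 0.73 as a pooled SD of log2 differences (1766 genes). In sorted bulk RNA, fewer cells that carry a transcript and less transcript per cell cannot be told apart.

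RefSeq promoter windows were at hand for 8 of the 9 receptors, all but Ccr7. The 250 bases before the annotated start are shown for the eosinophil-bright receptors Ccr3, Ccr1 and Cxcr2, and for Ccr9, which was brighter in dendritic cells, so that they can be compared. Sequences are from RefSeq, mouse build GRCm38.p6, written 5′ to 3′ on the strand of the gene. Capitals mark 3 short motifs searched on both strands: AGATAA of GATA factors, GAGGAA of PU.1 and TGTGGT of RUNX factors. The Ccr3 window lies inside the annotated gene, since longer transcript models start further upstream, and the other windows lie directly before the gene.
Ccr3, chr9:124021721-124021970, plus strand: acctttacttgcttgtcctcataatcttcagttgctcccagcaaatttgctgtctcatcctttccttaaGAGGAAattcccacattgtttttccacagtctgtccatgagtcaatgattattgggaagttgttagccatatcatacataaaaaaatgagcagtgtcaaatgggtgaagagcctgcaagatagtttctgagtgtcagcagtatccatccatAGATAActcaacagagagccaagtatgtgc
Ccr1, chr9:123968693-123968942, minus strand: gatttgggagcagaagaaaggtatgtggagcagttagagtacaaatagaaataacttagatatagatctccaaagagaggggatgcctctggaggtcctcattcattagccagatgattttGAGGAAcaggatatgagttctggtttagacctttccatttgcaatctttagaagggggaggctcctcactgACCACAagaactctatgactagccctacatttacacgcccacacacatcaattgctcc
Cxcr2, chr1:74153744-74153993, plus strand: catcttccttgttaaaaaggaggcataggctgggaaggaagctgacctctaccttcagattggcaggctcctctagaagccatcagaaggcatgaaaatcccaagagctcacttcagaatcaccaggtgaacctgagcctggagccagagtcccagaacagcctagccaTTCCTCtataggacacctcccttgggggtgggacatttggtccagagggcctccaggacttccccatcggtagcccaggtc
Ccr9, chr9:123766961-123767210, plus strand: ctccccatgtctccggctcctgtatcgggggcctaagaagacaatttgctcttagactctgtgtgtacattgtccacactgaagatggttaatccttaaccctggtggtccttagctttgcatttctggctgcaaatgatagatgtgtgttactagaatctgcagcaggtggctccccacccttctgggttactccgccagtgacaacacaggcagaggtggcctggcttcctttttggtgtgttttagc
The Ccr3 window held AGATAA with its first base 30 bases before the start, and GAGGAA at 181 bases. Ccr1 held GAGGAA and the reverse complement of TGTGGT, Cxcr2 held the reverse complement of GAGGAA, and Ccr9 held none of the 3 motifs. Over all 8 genes with a listed promoter, AGATAA occurred in 3 (Ccr2, Ccr3 and a second start of Ccr6). GAGGAA occurred in 4 (Ccr1, Ccr3, Ccr6 and Cxcr2) and TGTGGT in 2 (Ccr1 and Cx3cr1). Among all 32851 promoter windows of the same length, 9.99% held AGATAA, 23.3% held GAGGAA and 14.0% held TGTGGT. None of the motifs overlapped another in these windows, and a match is a string of letters, not a measured binding site.

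Markers of each labelled population were bright mainly on its own array. Of 6 eosinophil markers with a probe set, 4 lay above the floor in eosinophils, but 0 did so in dendritic cells (summed signals 18413 and 221 units). Prg2 (73.0 units) and Prg3 (3.54 units), granule protein genes, were nonetheless under the floor even in eosinophils. All 8 dendritic cell markers with a probe set lay above the floor in dendritic cells and 4 of them in eosinophils (summed signals 132192 and 1954 units). Zbtb46 (592 units in dendritic cells, 400 in eosinophils) and Batf3 (839 and 417 units) separated the populations little, at 1.48-fold and 2.01-fold. The brightest of these markers were Alox15, a lipoxygenase (9996 units in eosinophils), and Cd74, the MHC class II invariant chain (64399 units in dendritic cells). SiglecF and MHCII were used to sort the cells. The split of Siglecf (6977 units in eosinophils) and of the MHC class II genes Cd74 and H2-Ab1 (31759 units in dendritic cells) was therefore largely set by the sort. No marker of any list read exactly 0. Medians were 148 units in eosinophils against 122 in dendritic cells. The 3′ over 5′ signal ratio, which is higher where RNA is less intact, was 9.81 and 6.58 for Gapdh and 6.38 and 9.0 for Actb in eosinophils and dendritic cells. On both arrays the 5′ probe sets of these genes thus read far dimmer than the 3′ ones. The effect of RNA quality on dim or discordant probe sets was not tested. The median log2 difference of all 7994 measured genes was 0.16, and 18 spike controls added in fixed amounts were brighter in eosinophils by 1.04 on the same scale.

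The receptors split between the populations. Eosinophils gave the brighter signal, by 4-fold or more, for Ccr3, Ccr1 and Cxcr2, and dendritic cells for Ccr7 and Ccr9. Cxcr4 was bright on both arrays, Ccr2 lay near the floor on both, and Ccr6 and Cx3cr1 lay under it on both. That is 3 of 7 measured receptors in the eosinophil direction, beside 5.35% of all measured genes, and 2 of 7 in the dendritic cell direction, beside 5.35%. By probe set these were 3 of 10 measured, beside 4.76%, and 2 of 10, beside 5.12%. The split of all genes depended on scaling: with the eosinophil share first it was 3.99% and 7.21% after median centring, 7.65% and 3.69% after centring on housekeeping genes, and 1.98% and 14.2% after centring on the spike controls. Of the 5 calls, 4 had their dimmer side under the floor, so their size is a bound. Receptors measured on 1 array alone could enter only by being brighter there, and the 9 genes were chosen with results of these arrays known, so these counts describe the set and are not evidence about it.

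**Figure D1:**
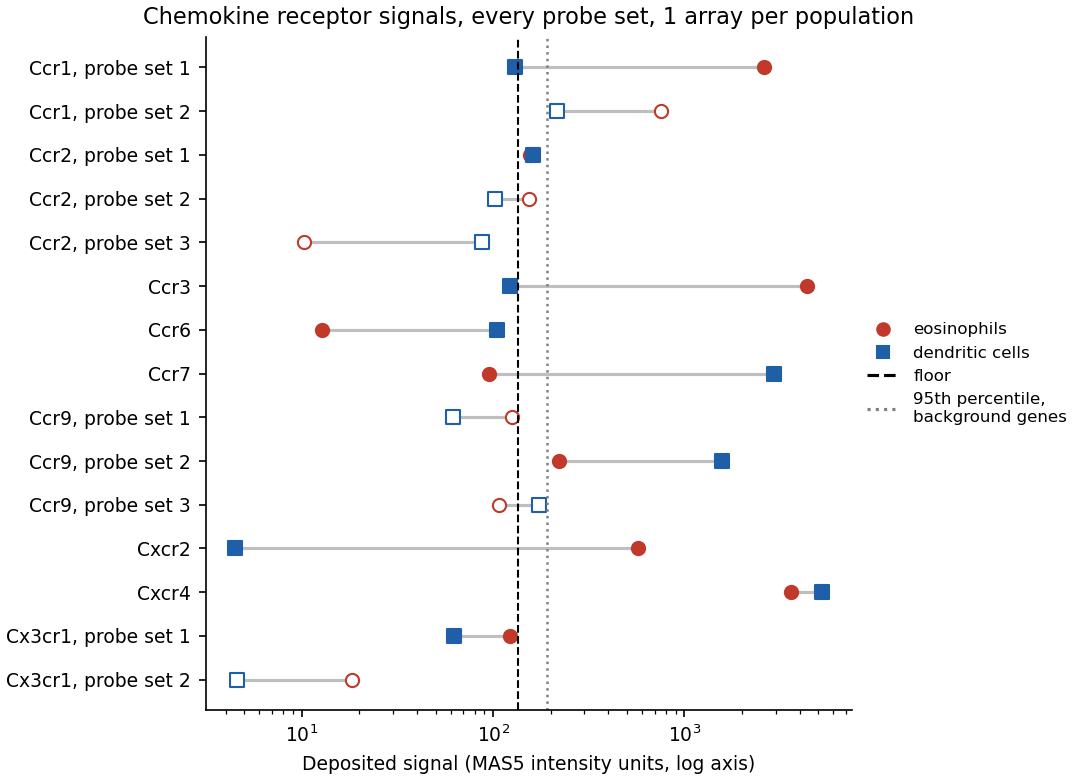
Deposited signal of all 15 probe sets of the 9 receptors (log axis), with a red circle for the eosinophil array and a blue square for the dendritic cell array. Filled symbols mark the probe set that stands for the gene, the dashed line is the floor of 134.7 units and the dotted line the background percentile of 191 units. Ccr3 and Cxcr4 show the contrast between a receptor above the lines on 1 array and a receptor above them on both.

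Ccr3, the receptor for the eotaxins Ccl11 and Ccl24, gave 4377 units in eosinophils against 123 in dendritic cells. Only eosinophils lay above the floor, with a ratio of at least 32.5-fold. Its log2 difference of 5.02 ranked 15th of 7994 measured genes from the eosinophil end. Ccr3 has 1 probe set here, so no second probe set checks it. The 3 genes with the nearest pair of log2 signals, by Euclidean distance over the 2 arrays, were the cation exchanger Slc24a3 (distance 0.071), the lactate dehydrogenase Ldhc (0.15) and Hacd4 (0.16). All 4 genes were under the floor in dendritic cells, so the distance rests on the eosinophil signal alone.

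Ccr1, a receptor for Ccl3 and related inflammatory chemokines, gave 2599 units in eosinophils against 129.8 in dendritic cells, at least 19.3-fold. Its second probe set gave 749.5 units in eosinophils against 216 in dendritic cells, 3.47-fold. The log2 differences, 4.27 and 1.79, had the same sign, but the second fell short of 4-fold and read dendritic cells above the background percentile. The 2.48 between them was 3.41 times the pooled SD. Among 2839 genes with at least 2 measured probe sets, 6.34% had probe sets at least that far apart, and the median range was 0.90.

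Cxcr2, the receptor for neutrophil-attracting CXC chemokines, gave 570.4 units in eosinophils against 4.48 in dendritic cells. Only the eosinophil signal lay above the floor. The ratio was at least 4.23-fold, just past the mark, because the floor sets the lower side. It no longer passed 4-fold after median centring, loess or spike centring, or with the background percentile as floor (1.95, 1.87, 1.58 and 1.58 on the log2 scale). With the 25th percentile of signals as floor it rose to 3.78. Cxcr2 is best known from neutrophils. Of 7 neutrophil markers with a probe set, only Elane (155 units) and S100a8 (147 units) exceeded the floor in eosinophils, both under the background percentile, and S100a9 gave 133 units. The summed signal of the 7 was 677 units in eosinophils against 528 in dendritic cells. Ly6g and Retnlg, also on the list, had no probe set of their own. The part of neutrophils in the Cxcr2 signal was not tested.

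Ccr7, the receptor for Ccl19 and Ccl21, gave 2945 units in dendritic cells against 95.3 in eosinophils. Only dendritic cells lay above the floor, with a ratio of at least 21.9-fold. Its log2 difference of -4.45 ranked 48th of 7994 from the dendritic cell end, and it has 1 probe set.

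Ccr9, the receptor for the small intestinal chemokine Ccl25, was read differently by its 3 probe sets. The brightest gave 1578 units in dendritic cells against 219.8 in eosinophils, 7.18-fold. Another gave 174 units in dendritic cells against 107 in eosinophils, at least 1.29-fold and under the background percentile on both arrays. The remaining probe set lay under the floor on both, with 62.0 units in dendritic cells against 125 in eosinophils. The dendritic cell excess of Ccr9 therefore rests on 1 of 3 probe sets. The difference of -2.84 fell to -0.85 when probe sets were averaged. Its measured probe sets lay 2.47 apart, a range reached by 6.38% of genes with at least 2.

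Ccr9 also marks plasmacytoid dendritic cells and intestinal T cells. Of 5 plasmacytoid markers with a probe set, only Tcf4 exceeded the floor in dendritic cells (980.3 units, against 335 units in eosinophils, in the probe set that stands for it). Of its 5 measured probe sets, 1 was brighter in eosinophils (393 against 284.5 units). For the 5 genes, the summed signal was 1315 units in dendritic cells against 528 in eosinophils. Of 7 T cell markers, 4 exceeded the floor in dendritic cells and 3 in eosinophils, with summed signals of 4785 and 847 units. Most of the former was Cd8a (3732 units), which subsets of dendritic cells also express, and its other probe set was under the floor on both arrays. Cd3e gave 557 units in dendritic cells against 336 in eosinophils, while Cd3d, Cd3g and Cd4 were under the floor on both arrays. The part of such cells in the Ccr9 signal was not tested.

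**Figure D2:**
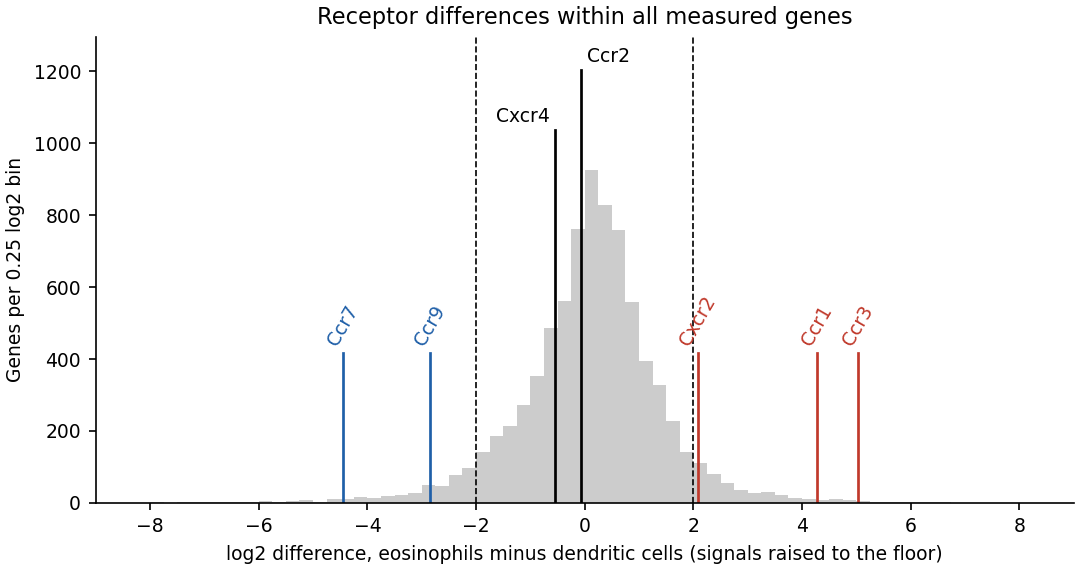
Histogram of the log2 difference (eosinophils minus dendritic cells, signals raised to the floor) of all 7994 measured genes in bins of 0.25, with a line at each of the 7 measured receptors; line height carries no value. Dashed lines mark 4-fold. Ccr3 and Ccr1 lie in the right tail, Ccr7 in the left tail, Cxcr2 just past the right mark, and Ccr2 and Cxcr4 near the centre.

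Cxcr4, the receptor for Cxcl12, was bright in both populations. It gave 3607 units in eosinophils against 5242 in dendritic cells, both far above the background percentile. The 1.45-fold excess in dendritic cells (-0.54 on the log2 scale) was under the pooled SD between probe sets of 0.73. It stayed under 4-fold in all 10 alternative processings, between -1.58 and -0.16. Cxcr4 has 1 probe set, so the probe set rules could not move it. The genes with the nearest pair of log2 signals were the transaldolase Taldo1 (distance 0.035), the translation factor Eif4h (0.045) and the kinase Prkx (0.046).

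Ccr2, which brings monocytes out of the bone marrow, was not clearly above background on either array. Its brightest probe set gave 155 units in eosinophils against 162 in dendritic cells, 1.05-fold apart. The second gave 154 units and 102 units, and the third gave 10.3 units and 87.3 units, under the floor on both. Its log2 difference, -0.06 as reported, reached 0.31 after housekeeping centring and -0.80 after spike centring. No difference in Ccr2 was detectable at this brightness.

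Ccr6, a receptor for Ccl20 on lymphocytes and some dendritic cells, gave 12.7 units in eosinophils against 105 in dendritic cells from 1 probe set. Both signals were under the floor and no ratio was taken. Cx3cr1, known from intestinal macrophages, gave 123 and 62.4 units from the brighter probe set and 18.4 and 4.59 units from the other, in eosinophils and dendritic cells. All were under the floor. A signal under the floor does not show that the gene was silent.

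Macrophages, monocytes and B cells can carry Cx3cr1, Ccr2 or Ccr6, and their part in these signals was not tested. Of 8 macrophage and monocyte markers with a probe set, 4 exceeded the floor in dendritic cells and 3 in eosinophils, with summed signals of 4512 and 1624 units. Cd14 (2641 units) and Csf1r (1121 units) led in dendritic cells, and Csf1r (763 units) in eosinophils. The 3 probe sets of C1qb gave 164, 363 and 395 units in dendritic cells and were under the floor in eosinophils. C1qa gave 153 units in dendritic cells, within the range of background. Mertk (258 units) and Cd163 (193 units) exceeded the floor in eosinophils alone. Fcgr1 and C1qc were under the floor on both arrays. None of 6 B and plasma cell markers reached the floor on either array, in any probe set; the brightest signal was 131 units, from the second probe set of Ms4a1 in eosinophils. The brightest markers of the other cell types were Kit among mast cell genes (291 units in dendritic cells, 110.2 in eosinophils) and Prf1 among natural killer genes (232 and 214 units). Among epithelial genes, Epcam led in dendritic cells (336 units) but was brighter in eosinophils (433 units). Krt18 led in eosinophils (869.6 units, 60.7 in dendritic cells). Among stromal and endothelial genes, Col1a1 led in dendritic cells (225 units, 99.2 in eosinophils) and Pecam1 in eosinophils (647 units, 55.8 in dendritic cells).

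Neighbouring receptor genes did not share a pattern. In RefSeq order, 8 protein-coding genes run from Ccr9 to Ccr2 on mouse chromosome 9, and 4 of the receptors lie there. Ccr1 and Ccr3, bright in eosinophils, flank Ccr1l1, a Ccr1-like gene that was under the floor on both arrays (14.0 units in eosinophils against 128 in dendritic cells). Ccr2, next to Ccr3, lay near the floor. Ccr9 and Xcr1 at the other side were brighter in dendritic cells. Xcr1, the receptor of cross-presenting dendritic cells, read 251 units in dendritic cells against 14.0 in eosinophils, at least 1.86-fold. Fyco1, a transport adaptor gene between them, gave 688 units in eosinophils against 313 in dendritic cells. These receptors are related in sequence, and probe sets may not fully tell them apart.

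**Figure D3:**
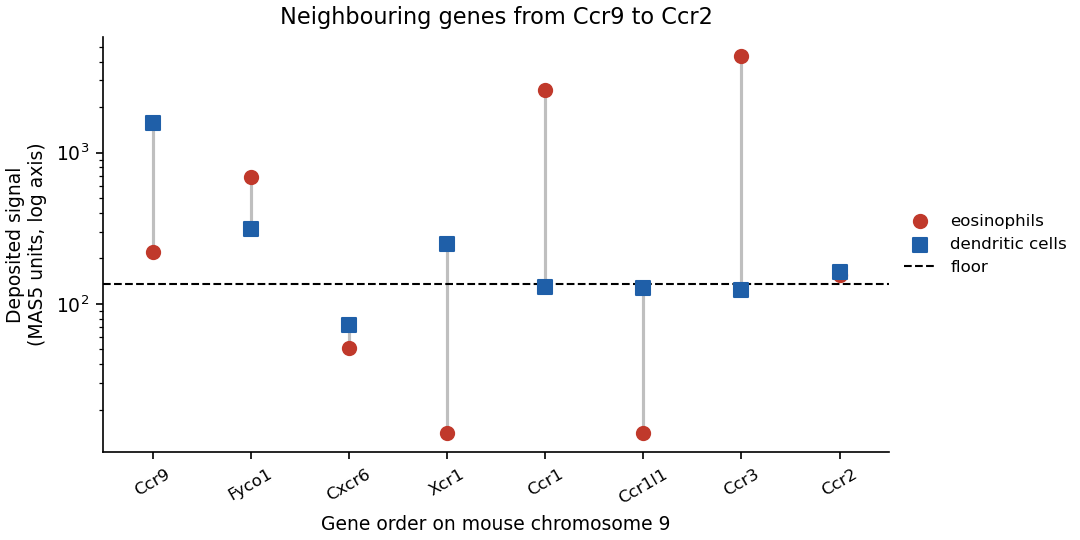
Deposited signal (log axis) of the genes from Ccr9 to Ccr2 in their order on mouse chromosome 9, not to scale, with red circles for eosinophils and blue squares for dendritic cells; the dashed line is the floor. Ccr1 and Ccr3 stand high in eosinophils, with Ccr1l1 between them under the floor on both arrays.

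Other receptors of the chemokine family were mostly dim. Of 7 other conventional receptors with a probe set, 5 (Ccr4, Ccr8, Ccr10, Cxcr5 and Cxcr6) were under the floor on both arrays, beside 4399 of all 12393 genes. Xcr1 and Cxcr3 were measured, and Cxcr3 barely so (136 units in dendritic cells and 130.4 in eosinophils). Of 6 atypical receptors and relatives, most of which bind ligand without classical G protein signalling, 4 were measured and 1 passed 4-fold, toward dendritic cells, beside 5.35% of all measured genes. That was Ccrl2, which presents the attractant chemerin, at 1272 units in dendritic cells against 154 in eosinophils. Its difference was -3.05 on the log2 scale, and -2.74 with the background percentile as floor. Ackr1, Ackr2 and Ackr3 reached at most 145 units.

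Of 12 attractant receptors outside the chemokine family with a probe set, 6 were measured. Eosinophils were 4-fold or more brighter for 3 of them and dendritic cells for 0, beside 5.35% of all measured genes in each direction. After spike centring these were 2 and 0, beside 1.98% and 14.2%. The leukotriene B4 receptor Ltb4r1 gave 2273 units against 54.6 units in dendritic cells (at least 16.9-fold). The complement C3a receptor C3ar1 gave 2494 units against 219 units (11.4-fold), and another probe set differed by 2.73 (log2). The formyl peptide receptor Fpr2 gave 1120.3 units against 158 units, a log2 difference of 2.82, or 2.55 with the background percentile as floor. After spike centring it was 1.78, short of 4-fold. S1pr1 (156 units in eosinophils), Cysltr1 (148 units in eosinophils) and S1pr4 (140.0 units in dendritic cells) were measured near the floor. C5ar1, Ptgdr2, Ptafr, Cysltr2, Cmklr1 and Hrh4 were under it on both arrays.

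Some ligands of Ccr1 and Cxcr2 were bright on at least 1 array, while most ligands of the other receptors lay under or near the floor. Ccr1 had 3 ligands that were bright in eosinophils: Ccl6 (26943 units in eosinophils, 432 in dendritic cells), Ccl3 (7353 and 293 units) and Ccl9 (782 and 123 units). The eosinophil excess was 62.3-fold, 25.1-fold and at least 5.80-fold, although the other probe set of Ccl9 was under the floor on both arrays. Ccl9 no longer passed 4-fold after spike centring (1.63 on the log2 scale) or when its probe sets were averaged (1.03). Ccl5, shared by Ccr1 and Ccr3, read 379 units in dendritic cells against 137 units in eosinophils, the latter within the range of background. For Ccr3, the eotaxins Ccl11 and Ccl24 and Ccl7, a ligand shared with Ccr1 and Ccr2, were under the floor on both arrays. For Cxcr2, Cxcl2 was bright on both (1316 units in eosinophils, 1463 in dendritic cells), Cxcl1 reached 454 units in dendritic cells alone, and Ppbp read 289.5 units in eosinophils against 144 in dendritic cells. Cxcl5 (Cxcr2) was under the floor on both arrays. The ligands Ccl20 (Ccr6), Cxcl12 (Cxcr4), Cx3cl1 (Cx3cr1) and Ccl12 (Ccr2) were under the floor on both arrays, Ccl2 (Ccr2) was at the floor on eosinophils (134.9 units), and Ccl25 (Ccr9) gave 178 units in eosinophils. The Ccr7 ligands Ccl19 and Ccl21a have only probe sets shared with other genes and were not named. Of 17 ligands with a probe set, 9 were measured, of which 3 passed 4-fold toward eosinophils and 0 toward dendritic cells, beside 5.35% of all measured genes in each direction. After spike centring 2 passed in each direction, beside 1.98% and 14.2%. Their median log2 difference was 0.40, beside 0.16 over all measured genes, and -0.43 beside -0.63 after spike centring.

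Genes that carry the receptor signal were measured on both arrays and, as reported, stayed under 4-fold, as did 7138 of all 7994 measured genes. All 15 coupling and effector genes with a probe set lay above the floor on both arrays. Of these, 0 passed 4-fold, beside 5.35% of all measured genes in each direction. Their median log2 difference was 0.47, beside 0.16 over all measured genes, and -0.57 beside -0.63 after spike centring. The inhibitory G protein subunit Gnai2 read 3225 units in eosinophils against 2452 in dendritic cells. Among those furthest apart were Ric8a, a G protein chaperone (3.52-fold brighter in dendritic cells), and the Rac activators Elmo1 (3.06-fold) and Dock2 (3.02-fold) and the GTPase Rac2 (2.54-fold), brighter in eosinophils. The subunit Gnb2 read 410.3 units in eosinophils against 136 in dendritic cells, the latter within the range of background, so its fold is uncertain. The 3.52-fold excess of Ric8a rests on 1 of its 4 probe sets. Others were brighter in dendritic cells by only 1.37-fold and 1.05-fold. The remaining one pointed the other way, at 0.43 on the log2 scale, with its dendritic cell signal under the floor. After spike centring 2 of the 15 passed 4-fold, both brighter in dendritic cells, beside 14.2% of all genes. After median centring 1 did so, also brighter in dendritic cells, beside 7.21%.

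Of 8 measured genes that end the receptor signal, 2 passed 4-fold toward eosinophils and 1 toward dendritic cells, beside 5.35% of all measured genes in each direction. These counts became 1 and 2 after spike centring, beside 1.98% and 14.2% of all genes, and 2 and 0 after housekeeping centring, beside 7.65% and 3.69%. With the least different probe sets they were 0 and 1, beside 3.39% and 3.33%. Rgs18, a regulator of G protein signalling of blood cells, gave 1065 units in eosinophils against 49.1 in dendritic cells (at least 7.90-fold), and Rgs19 gave 5255 and 909.9 units (5.78-fold). Second probe sets of both pointed the same way but fell short of 4-fold, at 1.84 and 1.77 on the log2 scale, and Rgs19 also fell short after spike centring (1.49). Rgs1, which limits chemokine responses of lymphocytes, gave 4086 units in dendritic cells against 887 in eosinophils (4.61-fold), and fell short of 4-fold after housekeeping centring (-1.83). The kinase Grk6 (at least 2.91-fold, eosinophils) and the regulator Rgs2 (2.40-fold, dendritic cells) followed. The list median was 0.68, beside 0.16 over all measured genes, and -0.36 beside -0.63 after spike centring.

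**Figure D4:**
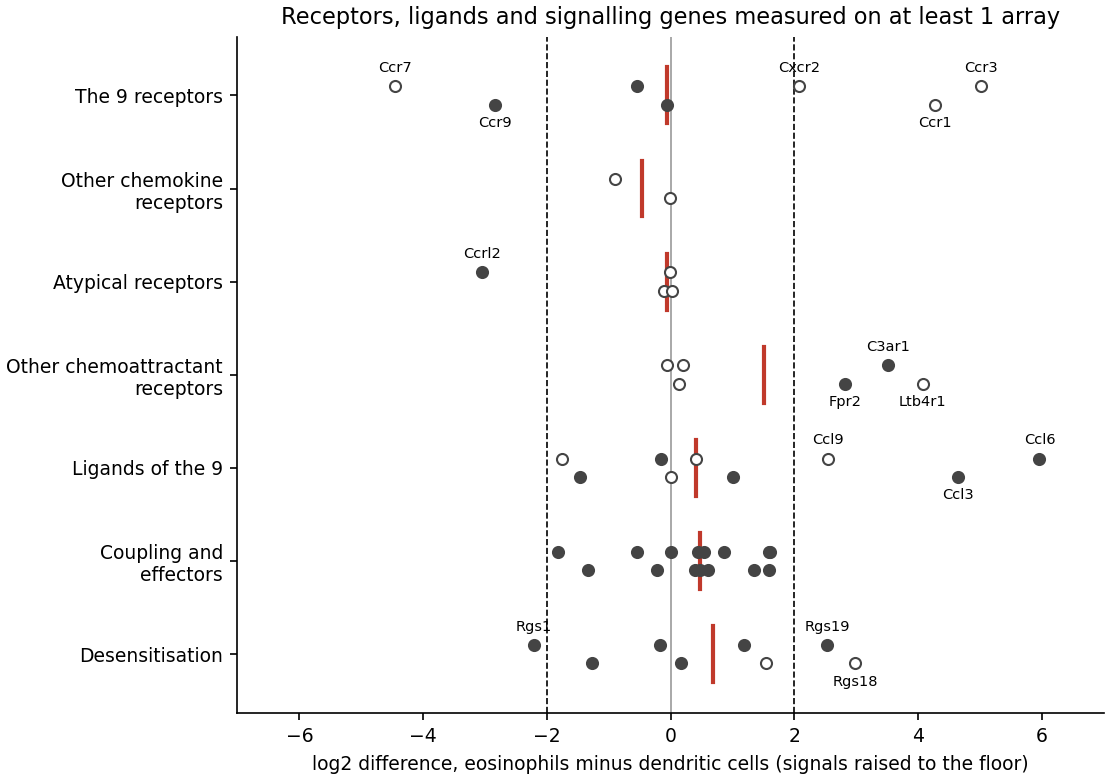
The log2 difference (eosinophils minus dendritic cells) of each gene measured on at least 1 array, by list; open circles are bounds with 1 side at the floor, red bars are list medians and dashed lines mark 4-fold. The receptors and attractant receptors spread past both or 1 of the lines, while the coupling genes stay within them, as do 7138 of all 7994 measured genes.

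The receptor calls differed in how many alternative processings kept them. Ccr3 and Ccr7 passed 4-fold in all 10 alternative processings, Ccr1 in 9, Ccr9 in 8 and Cxcr2 in 6. These numbers do not rank the receptors alike. Ccr3, Ccr7 and Cxcr2 have 1 probe set each, so a change of probe set rule could not move them. Ccr1 and Ccr9 lost 4-fold only under such rules.

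**Figure D5:**
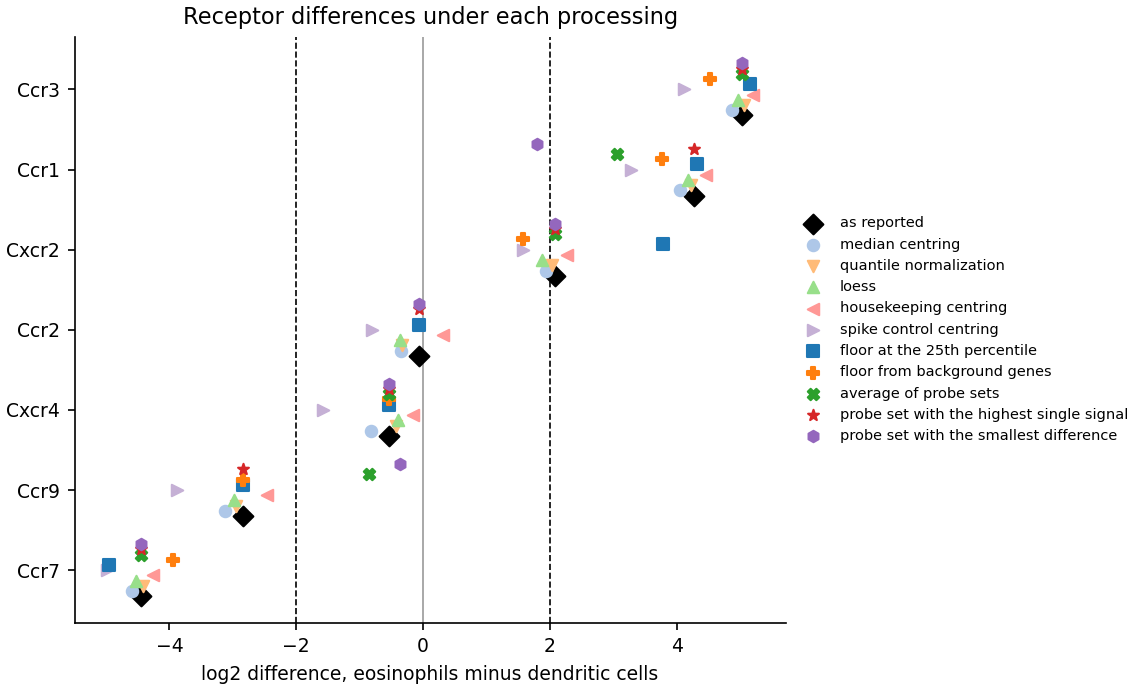
The log2 difference (eosinophils minus dendritic cells) of the 7 measured receptors as reported (black diamonds) and under 10 alternative processings (other symbols), of which Ccr2 was measured in 8; dashed lines mark 4-fold. Ccr3 and Ccr7 stay beyond the lines throughout. Ccr1 comes inside them with its least different probe set, and Ccr9 with that rule and with averaged probe sets. Cxcr2 lies between 1.58 and 3.78, on both sides of the line. Ccr3, Ccr7, Cxcr2 and Cxcr4 have 1 probe set each, so the probe set rules cannot move them.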

How the data were processed

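RNA from 2 sorted populations (1 array each) was measured on 3′ expression arrays. The deposited intensity values were computed, per the submitters' processing notes, by version 5.0 of the MAS5 software. The trimmed means were 500.2 and 500.3 units, so the arrays share a global scale. Background and scaling settings are not given in the sources used here. Total RNA was labelled as biotinylated cDNA, per the labels' protocols.

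Of 22690 probe sets, 64 controls were left out. The platform annotation gave 20380 of the rest 1 gene, 691 several (not named) and 1555 none; 20351 were matched by Entrez identifier to current RefSeq symbols (GRCm38.p6). Each gene was represented by its probe set of highest mean log2 deposited signal. The floor, ratios and 4-fold mark were computed in Python 3.11.15 and checked on simulated arrays. The receptors, lists and naming rule were chosen with earlier results of these data known. All receptors, every measured ligand, up to 5 genes per signalling or receptor list, and the brightest marker per list and array are named; other names were chosen after their values were seen. Alternatives covered scaling, floor, probe set rule and threshold. With 1 array each, precision is limited by the number of arrays.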

Additional observations from a re-analysis of the deposited data

How the results depend on the processing

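Across 10 alternatives for scaling, floor and probe set rule, Ccr3 and Ccr7 kept 4-fold in all 10, Ccr1 in 9, Ccr9 in 8 and Cxcr2 in 6, and all 5 kept their direction. The probe set rules could not change Ccr3, Ccr7 or Cxcr2, which have 1 probe set each. The count of receptors at least 4-fold brighter in dendritic cells fell from 2 to 1 when probe sets were averaged, when the probe set with the smallest difference was taken (both losing Ccr9) and at a 10-fold threshold. The count in eosinophils stayed at 2 or 3 in every alternative and at thresholds of 2-fold and 10-fold. Between 6 and 9 receptors were measured in these alternatives. The share of all measured genes past 4-fold ran from 1.98% to 7.65% toward eosinophils and from 3.33% to 14.2% toward dendritic cells. For the 2-fold threshold, 65.5% of all measured genes lay under it, and the share at 10-fold is not given here. Ccr1 fell to 1.79 on the log2 scale with its least different probe set. Spike centring moved the median of all genes from 0.16 to -0.63 and housekeeping centring moved it to 0.43; relative to that median, Ccr3 stayed between 4.74 and 5.02 and Ccr7 between -4.68 and -4.36 in the 5 scalings. The split of all genes at 4-fold, 5.35% in each direction, became 1.98% and 14.2% (eosinophils and dendritic cells) after spike centring. Without a floor, an alternative added after seeing the data, Cxcr2 rose to 6.99, a value set by a dendritic cell signal far under the floor. No paired analysis was possible because each population has 1 array. Signal close to background limits Ccr2, Ccr6 and Cx3cr1.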
